A study of Mus musculus with 6 samples.

Results

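TCF/LEF factors are the DNA-binding proteins through which canonical Wnt signalling reaches the genome, and several genes they control feed back on the pathway. The group described here held 10 genes of the 16854 in the deposited table, taken by gene symbol, and all 10 were found. It comprised the 4 factors Lef1, Tcf7, Tcf7l1 and Tcf7l2 and the 6 feedback genes Axin2, Nkd1, Nkd2, Rnf43, Znrf3 and Lgr6. RNA was sequenced from C2C12 cells, a mouse myoblast line, on day 3 after a switch to 2% horse serum, the medium in which they differentiate into myotubes. There were 3 libraries of cells with a stable short hairpin RNA against Adamtsl2 (knockdown) and 3 of cells with a scramble hairpin (control), and both groups shared the parental line, the serum switch and the day. The labels name neither the number of hairpins or clones nor separate cultures, so p-values measure the spread between these libraries, and effects of the hairpin on other targets cannot be told apart from those of Adamtsl2 loss. Its title names the question, which is how ADAMTSL2 bears on Wnt signalling in muscle formation.

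Without a Wnt ligand, a destruction complex built on axin marks beta-catenin for degradation, and TCF/LEF proteins sit on target genes with Groucho/TLE corepressors. A Wnt signal spares beta-catenin, which then binds TCF/LEF proteins and recruits coactivators. LEF1 and TCF7 act mostly with beta-catenin as activators, TCF7L1 is known mainly as a repressor, and TCF7L2 can do both. AXIN2 rebuilds the destruction complex, the NKD proteins bind Dishevelled, and the ubiquitin ligases RNF43 and ZNRF3 remove Frizzled receptors from the cell surface. LGR6 is a receptor for R-spondins, secreted proteins that withdraw those ligases and so raise the sensitivity to Wnt.

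Promoters are printed for Axin2, the most used readout, for Lef1 and Lgr6, the members lower in the knockdown, and for the internal Lef1 and Tcf7l2 starts, which held a TCF/LEF motif; gene counts pool every start site of a gene. RefSeq windows (GRCm38.p6) reaching from 250 bases before to 50 bases after a start were found for 9 of the 10 members, 15 windows in all. Znrf3 had no entry. Windows were searched on both strands for the TCF/LEF core CTTTGAA, with A or T allowed at each of its last 2 positions, and for the E-box CAGCTG, a motif bound by muscle basic helix-loop-helix factors. Capitals mark a match, and no match of one motif overlapped a match of the other.
Axin2 start, chr11:108920099-108920398, plus strand: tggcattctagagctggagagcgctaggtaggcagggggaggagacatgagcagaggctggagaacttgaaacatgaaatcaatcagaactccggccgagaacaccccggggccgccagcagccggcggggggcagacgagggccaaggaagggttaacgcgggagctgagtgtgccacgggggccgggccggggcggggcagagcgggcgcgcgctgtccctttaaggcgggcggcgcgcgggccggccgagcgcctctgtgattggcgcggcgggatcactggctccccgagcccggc
Lef1 first start, chr3:131110047-131110346, plus strand: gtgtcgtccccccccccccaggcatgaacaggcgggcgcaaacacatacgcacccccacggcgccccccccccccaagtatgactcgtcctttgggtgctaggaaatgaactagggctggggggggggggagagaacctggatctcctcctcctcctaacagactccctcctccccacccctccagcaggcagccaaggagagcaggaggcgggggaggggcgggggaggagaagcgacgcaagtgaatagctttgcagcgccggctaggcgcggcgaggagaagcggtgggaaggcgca
Lef1 internal start, chr3:131156044-131156343, plus strand: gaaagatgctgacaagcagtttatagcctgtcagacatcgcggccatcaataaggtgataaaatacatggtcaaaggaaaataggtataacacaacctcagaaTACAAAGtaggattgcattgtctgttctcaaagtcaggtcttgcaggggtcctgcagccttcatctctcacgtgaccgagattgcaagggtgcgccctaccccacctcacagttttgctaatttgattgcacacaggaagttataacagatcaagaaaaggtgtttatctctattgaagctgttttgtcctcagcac
Tcf7l2 internal start, chr19:55895071-55895370, plus strand: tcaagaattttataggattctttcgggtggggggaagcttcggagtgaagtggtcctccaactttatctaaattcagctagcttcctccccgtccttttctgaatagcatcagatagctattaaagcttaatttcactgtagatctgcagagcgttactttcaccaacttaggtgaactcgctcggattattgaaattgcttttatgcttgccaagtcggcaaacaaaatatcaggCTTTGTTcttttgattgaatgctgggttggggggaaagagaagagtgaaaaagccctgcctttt
Lgr6 start, chr1:135105227-135105526, minus strand: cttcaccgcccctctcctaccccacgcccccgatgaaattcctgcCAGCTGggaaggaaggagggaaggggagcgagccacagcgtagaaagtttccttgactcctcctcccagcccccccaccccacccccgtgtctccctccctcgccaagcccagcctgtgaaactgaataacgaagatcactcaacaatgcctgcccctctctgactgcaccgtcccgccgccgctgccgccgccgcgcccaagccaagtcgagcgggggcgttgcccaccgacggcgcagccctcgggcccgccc

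A TCF/LEF core lay in 2 of the 15 windows, those of the internal Lef1 and Tcf7l2 starts, against 16.9% of all 32851 windows of this length. The E-box lay in 4 windows, against 16.3% of all windows. It was once in the windows of Lgr6 and Tcf7, once in another Lef1 window and at 2 places in that of Nkd1. The Axin2 window and the first Lef1 window held neither motif. These matches describe letters in the windows, and binding was not measured.

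Gene counts recovered from the deposited values summed to 49367857, 48612567 and 39913603 reads in knockdown libraries 1 to 3, and to 43632911, 37346439 and 50329438 in control libraries 1 to 3. All levels are the authors' normalised counts (reads divided by a library size factor), in which 1 read was worth 0.829 to 1.26. Adamtsl2, the hairpin target, was at 23.2, 21.7 and 7.83 in the knockdown, against 1325, 1266 and 1307 in control. Knockdown library 3 stood apart from the other two: across genes its log2 values correlated at 0.917 and 0.920 with knockdown libraries 1 and 2, which correlated at 0.996 with each other, and control libraries correlated at 0.993 to 0.995. Where leaving it out changed the call or the direction of a member, both results are given. Other results are not all given without it. All 7 myotube markers tested (Myog, Myh3, Acta1, Ckm, Mymk, Tnnt3 and Des) were lower, their summed level lying at 7337 to 8367 in the knockdown and 1038389 to 1057425 in control. Of 4 myoblast markers 3 were lower, Pax7 among them, and Myf5 was higher. Their sums were 2258 to 3809.5 in the knockdown and 23001 to 23752 in control. Pax7 was at 0, 0 and 14.5 in knockdown libraries 1 to 3, against 103.5, 147.8 and 128.3 in control. Pax7 reached the limit for testing through control, where it is high, so its call is no support. Of 4 mesenchymal progenitor markers tested, Ly6a and Cd34 were higher and 0 lower, with sums of 43583 to 45791 in the knockdown and 2328 to 2602 in control. Pdgfra and Dpt were not called, at 0.47 and 0.02 log2, and Pdgfra was called higher, at 0.89, without knockdown library 3. The rise of the sum lay in Ly6a (mean 19025 in the knockdown, 77.0 in control) and Cd34 (22713 and 274). Pdgfra (2203 and 1481) and Dpt (621 and 609) made up most of the control sum. Of the 5 tested markers of immune, epithelial and Schwann cells, Krt8 (epithelial) was lower and the others were not called. Krt8 was at 2.49, 0.84 and 5.59 in the knockdown and at 25.1, 22.7 and 27.6 in control. It too reached the limit for testing through control, where it is high, so its call is no support. Summed levels of the immune, epithelial and Schwann markers were 51.4 to 69.4, 25.1 to 35.6 and 78.8 to 519.8 in the knockdown, against 39.2 to 67.5, 40.3 to 48.0 and 64.3 to 83.6 in control. The endothelial marker Pecam1, not tested, was at 4.97, 2.51 and 68.2 in knockdown libraries 1 to 3 and at 4.36, 3.79 and 1.90 in control. The high Schwann sum was also that of knockdown library 3, where libraries 1 and 2 were at 78.8 and 80.3. The part of these marker differences in the results was not tested, and in bulk RNA fewer cells of a type and less RNA per cell cannot be told apart.

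The TCF/LEF factors changed in opposite directions: Lef1 was lower in the knockdown, and Tcf7, Tcf7l1 and Tcf7l2 were higher. Among the feedback genes, Nkd1 and Nkd2 were higher, Lgr6 was lower, and Axin2 and Znrf3 were not called. Genes were tested with limma on log2(value + 1), and a gene is called at a Benjamini-Hochberg adjusted p under 0.05 over the 16245 genes that reached 10 in 3 or more libraries. Of the members, 9 passed that filter. Nkd1 would have passed it through the knockdown libraries alone, where it is high, and not through the control libraries alone. Its call is therefore given but is no support. Rnf43 did not pass and has no test. The members called were 5 higher, Nkd1 among them, and 2 lower, beside 21.7% of all genes called higher and 23.5% called lower. Without knockdown library 3, 6 members were higher and 2 lower, beside 38.6% and 39.9% of all genes. The member added was Znrf3.

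**Figure D1:**
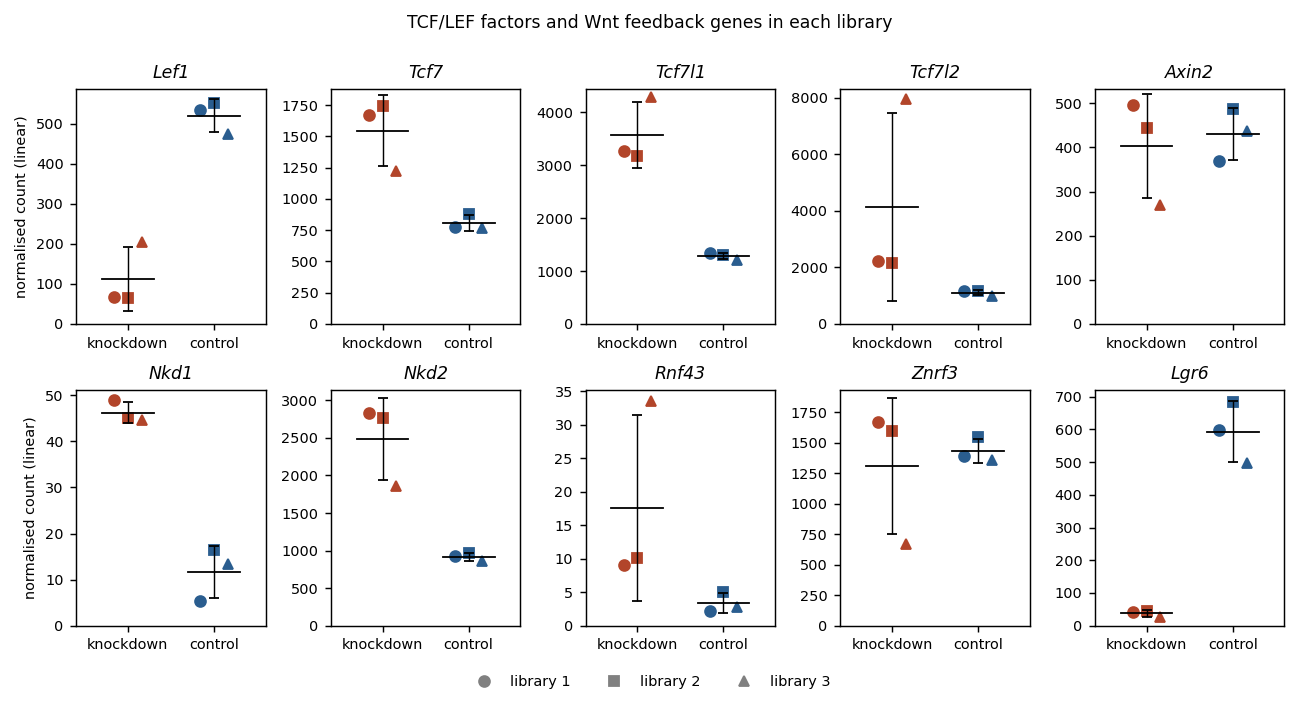
Normalised count (linear axis from 0) of each member in the 3 knockdown and 3 control libraries; symbols stand for libraries, the line and bar for mean ± SD. Knockdown library 3 is at least 2-fold from the mean of knockdown libraries 1 and 2 for Lef1, Tcf7l2, Rnf43 and Znrf3. It also stands off, by less than 2-fold, for Tcf7, Tcf7l1, Axin2, Nkd2 and Lgr6, and is close for Nkd1. The groups overlap for Axin2 and Znrf3.

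Lef1 (ENSMUSG00000027985, chromosome 3, 131110471 to 131224356 of GRCm38, plus strand), an activating partner of beta-catenin, was at 66.3, 63.6 and 203 in the knockdown and at 534, 552 and 473 in control. Every knockdown library was below every control library, with library 3 the highest of the knockdown. The mean was 111 ± 80.0 in the knockdown and 519.7 ± 41.3 in control (SD, n = 3 each), 4.68-fold lower. On the log2 scale the change was -2.43 ± 0.47 (SE), adjusted p = 0.0071 (limma), and -2.98 ± 0.11 without knockdown library 3. The antisense gene Gm43352, looked up for its overlap with 1208 of the 8788 exonic bases of Lef1, was at 8.29, 9.20 and 0 in the knockdown and at 51.2, 53.0 and 52.3 in control. The strand setting of the counting is not given in the sources used here, so reads in the shared bases cannot be told apart.

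Tcf7 (ENSMUSG00000000782, chromosome 11, 52252371 to 52283014, minus strand), also called TCF1 and best known as an activator in T cells, was at 1675, 1742 and 1221 in the knockdown and at 774, 882 and 766 in control. The knockdown values all lay above the control values, library 3 being the lowest of them. The change was 0.92 ± 0.17 log2 (SE), adjusted p = 0.0066 (limma), or 1.92-fold between means. Lef1 and Tcf7, the pair of factors with mostly activating roles, thus differed in direction. The difference of their log2 values (Lef1 minus Tcf7) was -4.64, -4.75 and -2.58 in the knockdown and -0.53, -0.67 and -0.69 in control. It was lower by 3.36 in the knockdown, with no overlap (exact two-sided permutation p = 0.1, the smallest that 3 against 3 libraries allow, and adjusted p = 0.2 over 4 pairs). With Lef1 wholly below and Tcf7 wholly above control, the difference could not overlap, so this test adds nothing to the results of the 2 genes.

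Tcf7l1 (ENSMUSG00000055799, chromosome 6, 72626378 to 72789254, minus strand), the factor known mainly as a repressor, was at 3273, 3168 and 4298 in the knockdown and at 1333, 1299.7 and 1216 in control. The 3 knockdown values were above all control values and, for this gene, library 3 was the highest. Its change was 1.47 ± 0.15 log2 (SE), adjusted p = 6.0e-04 (limma), with a 2.79-fold ratio of means. Without knockdown library 3 it was 1.33 ± 0.06. The antisense gene Gm15401 shares 179 of its 3924 exonic bases. Leaving out any 1 library kept the change between 1.33 and 1.55.

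Tcf7l2 (ENSMUSG00000024985, chromosome 19, 55741820 to 55933654, plus strand) was at 2242, 2169 and 7961 in the knockdown and at 1153, 1166 and 996 in control. All knockdown values lay above all control values, but library 3 was 3.61 times the mean of libraries 1 and 2. The change was 1.62 ± 0.51 log2 (SE), adjusted p = 0.045 (limma), and 1.00 ± 0.07 without library 3 (adjusted p = 6.8e-07). The call was lost when any 1 control library was left out (adjusted p = 0.11 to 0.13). Tcf7l1 and Tcf7l2 were not shown to change unequally: the difference of their log2 values (Tcf7l1 minus Tcf7l2) was 0.07 ± 0.83 in the knockdown and 0.22 ± 0.07 in control (SD, n = 3 each), with exact two-sided permutation p = 1. It was 0.55, 0.55 and -0.89 in the knockdown libraries, so the comparison turns on library 3, without which the knockdown was higher by 0.33.

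**Figure D2:**
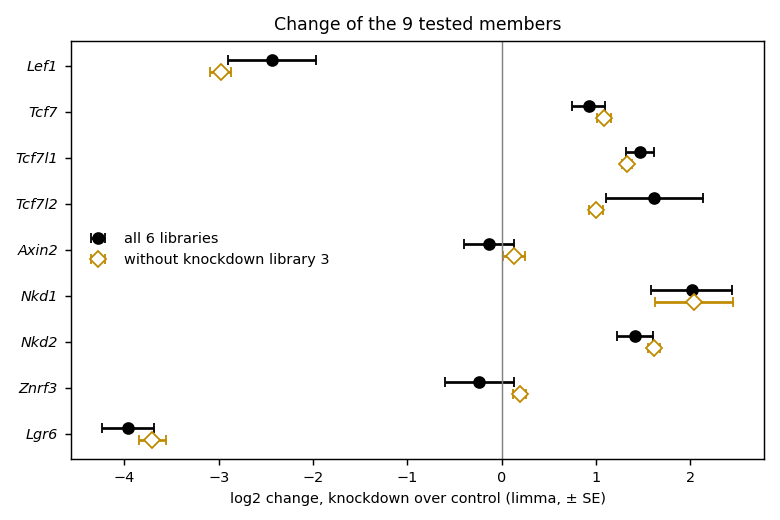
Log2 change of the 9 tested members, knockdown over control, with SE from limma; filled circles use all 6 libraries and open diamonds leave out knockdown library 3. Axin2 lies at -0.13 and 0.13, and Tcf7l2 at 1.62 and 1.00.

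Levels of different genes are compared per kilobase of exon. Summed over the 4 TCF/LEF genes, this level was 1735, 1725 and 2491 in the knockdown and 826, 863 and 769 in control. The knockdown libraries held more TCF/LEF RNA in all, without overlap (1984 ± 439 in the knockdown and 819 ± 47.3 in control, SD, n = 3 each; exact two-sided permutation p = 0.1, the smallest possible). With Tcf7, Tcf7l1 and Tcf7l2 wholly above control, the fall of Lef1 was too small to make the sums overlap. Per kilobase Tcf7l1 was at least 807 in the knockdown and at most 340 in control, and Lef1 at most 62.8 in control. The test of the sum thus adds nothing to the results of the genes. Lef1 made up 0.43%, 0.42% and 0.93% of the sum in the knockdown and 7.35%, 7.28% and 7.002% in control. Tcf7l1 made up 46.3% ± 2.10 in the knockdown and 39.9% ± 1.39 in control, again without overlap. Both shares had exact p = 0.1, or 0.2 adjusted over the 4 factors. For the Lef1 share this outcome was fixed, because Lef1 was wholly below and Tcf7, Tcf7l1 and Tcf7l2 wholly above control. Tcf7 held 36.8%, 38.5% and 18.7% in the knockdown and 35.7%, 38.9% and 37.9% in control. Tcf7l2 held 14.7%, 14.3% and 36.4% in the knockdown and 15.9%, 15.4% and 14.8% in control. For Tcf7, knockdown libraries 1 and 2 lay inside the control range, for Tcf7l2 just under it, and library 3 stood apart for both (exact p = 0.6 and 1). With coding length as the divisor, the difference in the Lef1 share, knockdown minus control, was -14.6 percentage points, where it was -6.62 with exonic length. The same change of divisor made the Tcf7 difference -2.98, where it was -6.21 (exact p = 1 and 0.6). It made the Tcf7l2 difference 10.4, where it was 6.47, and the Tcf7l2 groups no longer overlapped (exact p = 0.1 and 1). With coding length Tcf7l2 held 22.7%, 22.1% and 49.9% in the knockdown and 21.8%, 21.1% and 20.4% in control, so most of that difference lay in knockdown library 3.

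**Figure D3:**
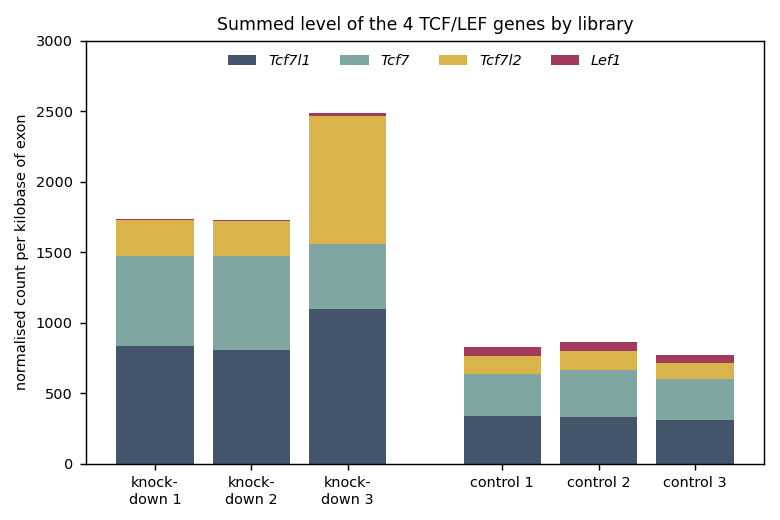
Normalised count per kilobase of exon of Tcf7l1, Tcf7, Tcf7l2 and Lef1, stacked for each library on a linear axis from 0. The 3 knockdown bars reach 1725 to 2491 and the 3 control bars 769 to 863, and the Lef1 segment is thinnest in the knockdown.

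Axin2 (ENSMUSG00000000142, chromosome 11, 108920349 to 108950783, plus strand), the most used transcript readout of beta-catenin and TCF activity, was at 495, 443 and 269 in the knockdown and at 368, 486 and 436 in control. The groups overlapped: knockdown library 1 was the highest of all 6 and knockdown library 3 the lowest. Its change was -0.13 ± 0.27 log2 (SE), with a 95% interval of -0.78 to 0.51 and adjusted p = 0.71 (limma). In the authors' deposited table its log2 fold change is -0.094, with an adjusted p of 0.82. Of its 5506 exonic bases, 209 are shared with the antisense gene Gm11670. Without knockdown library 3 the estimate was 0.13 ± 0.12, adjusted p = 0.33.

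Nkd1 (ENSMUSG00000031661, chromosome 8, 88521354 to 88594884, plus strand), which encodes a Dishevelled-binding inhibitor of the pathway, was a gene of low level, with 59, 54 and 40 reads in the knockdown libraries and 5, 13 and 14 in the control libraries. Its normalised counts were 48.9, 45.2 and 44.7 in the knockdown and 5.45, 16.4 and 13.3 in control. The knockdown values were close together and above the control values. The log2 change was 2.01 ± 0.43 (SE), adjusted p = 0.011 (limma). With 5.45 in control library 1, Nkd1 met the filter of 10 in 3 libraries through the knockdown, so this call is no support. Its paralog Nkd2 (ENSMUSG00000021567, chromosome 13, 73818534 to 73847631, minus strand) was at 2827, 2764 and 1855 in the knockdown and at 924, 965 and 859 in control. It was likewise higher in every knockdown library, by 1.41 ± 0.19 log2, adjusted p = 0.0018. The difference Nkd1 minus Nkd2 in log2 values was -5.69 ± 0.30 in the knockdown and -6.29 ± 0.76 in control (SD, n = 3 each). An unequal change of the paralogs was not detected (knockdown higher by 0.60, exact two-sided permutation p = 0.4, adjusted p = 0.53).

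Znrf3 (ENSMUSG00000041961, chromosome 11, 5276324 to 5444847, minus strand), the ligase that clears Frizzled receptors, was at 1667, 1598 and 667 in the knockdown and at 1394, 1545 and 1361 in control. Knockdown libraries 1 and 2 were the highest of the 6 and knockdown library 3 the lowest. The change was -0.24 ± 0.37 log2 (SE), 95% interval -1.13 to 0.65, adjusted p = 0.63 (limma). Without knockdown library 3 it was 0.19 ± 0.07 in the other direction, adjusted p = 0.024. Its paralog Rnf43 (ENSMUSG00000034177, chromosome 11, 87662722 to 87735539, plus strand) had 11, 12 and 30 reads in the knockdown and 2, 4 and 3 in control, or normalised counts of 9.12, 10.04 and 33.5 in the knockdown, against 2.18, 5.05 and 2.85 in control. The knockdown values lay above the control values, but the control counts lie about the floor of 3 reads a library. The difference of mean log2 values was 1.90, and 1.33 without knockdown library 3. In the authors' deposited table its log2 fold change is 2.39 with an adjusted p of 0.028. Without the filter on low values, limma gave an adjusted p of 0.056. The difference Rnf43 minus Znrf3 was higher by 2.14 log2 in the knockdown and by 1.14 without library 3 (exact two-sided permutation p = 0.1, adjusted p = 0.2).

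Lgr6 (ENSMUSG00000042793, chromosome 1, 134983301 to 135105276, minus strand), the R-spondin receptor, was at 43.1, 45.2 and 25.7 in the knockdown and at 597, 685 and 498 in control. Every knockdown library was far below every control library. The mean was 38.0 ± 10.7 in the knockdown and 593 ± 93.4 in control (SD, n = 3 each), 15.6-fold lower. Its change of -3.96 ± 0.27 log2 (SE), adjusted p = 1.3e-04 (limma), was the largest of the 9 tested members. It stayed between -4.10 and -3.71 when any 1 library was left out.

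Of the 9 tested members, 5 (Nkd1 among them) had knockdown values wholly above and 2 wholly below the control values, beside 30.0% and 32.7% of all genes tested. Among all members, Lef1, Tcf7l2 and Rnf43 were at least 2-fold higher, and Znrf3 at least 2-fold lower, in knockdown library 3 than in the mean of libraries 1 and 2. Of all genes tested, 20.5% were that much higher and 16.0% that much lower in that library.

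In order of level per kilobase, Tcf7l1 (912 ± 159), Tcf7 (589 ± 108), Nkd2 (514 ± 113) and Tcf7l2 (469.9 ± 379) led in the knockdown, followed by Znrf3 (166 ± 70.7) and Axin2 (73.1 ± 21.5; SD, n = 3 each). Lef1 (12.6 ± 9.10), Nkd1 (10.2 ± 0.51), Lgr6 (5.55 ± 1.56) and Rnf43 (2.68 ± 2.11) came last. Lef1 (7.39) stood below Nkd1 (10.3) without knockdown library 3, and the rest of the order held. In control the order was Tcf7l1 (327 ± 15.3), Tcf7 (307 ± 24.7), Nkd2 (189.8 ± 11.1), Znrf3 (182 ± 12.4), Tcf7l2 (126 ± 10.8), Lgr6 (86.6 ± 13.6), Axin2 (78.1 ± 10.8), Lef1 (59.1 ± 4.70), Nkd1 (2.57 ± 1.24) and Rnf43 (0.51 ± 0.23). Lgr6 stood 3 ranks lower in the knockdown, at the 8.10th percentile of all genes tested, against the 39.7th in control. Neighbours whose values overlapped were, in the knockdown, Tcf7 with Nkd2, Nkd2 with Tcf7l2, Znrf3 with Axin2, Lef1 with Nkd1 and Lgr6 with Rnf43. In control they were Tcf7l1 with Tcf7, Nkd2 with Znrf3 and Lgr6 with Axin2.

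Around the members, 5 of the 10 tested TCF corepressors and inhibitors were higher and 2 were lower, with a median log2 change of 0.30, where the median of all genes tested was 0.00. Over all genes, 21.7% were called higher and 23.5% lower. Without knockdown library 3 the counts were 6 and 3, with a median of 0.40, beside 38.6% and 39.9% of all genes, and all lists below are read against these shares. Among the TLE corepressors, Tle2 (3513 ± 1061 in the knockdown, 691 ± 60.7 in control) was higher by 2.30 ± 0.26 log2 and Tle1 by 1.25 ± 0.16, while Tle4 (59.2 ± 4.58 in the knockdown, 389 ± 14.2 in control; SD, n = 3 each) was lower, at -2.70 ± 0.16 (adjusted p = 8.0e-04, 0.0013 and 7.0e-05, limma). The corepressor Ctbp1 was also lower, at -0.68 ± 0.11 (adjusted p = 0.0036). The TLE genes called thus went in both directions, but Tle3 was not called (0.16 ± 0.19, adjusted p = 0.53, limma). Nor was Aes of the same list (-0.08 ± 0.17, adjusted p = 0.74). Without knockdown library 3 both were called, at 0.34 and -0.22.

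Coactivators of beta-catenin and TCF numbered 10 tested, of which 4 were higher and 2 lower, with a median of -0.10. The counts were 7 and 2 without knockdown library 3 and the median turned to 0.34, beside 38.6% and 39.9% of all genes called. Bcl9l, an adaptor that links beta-catenin to the PHD-finger protein PYGO2, was higher by 1.05 ± 0.14 log2 (adjusted p = 0.0017) and Pygo2 by 0.53 ± 0.14 (adjusted p = 0.023). Cdc73, of the PAF1 transcription complex, was lower, at -0.82 ± 0.13 (adjusted p = 0.0030), and the chromatin remodeller Smarca4 at -0.69 ± 0.18 (adjusted p = 0.023). Pygo2 lost its call without any 1 of the control libraries, and Smarca4 without any 1 library other than knockdown library 3 (adjusted p up to 0.097 and 0.086).

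Of 11 other Wnt target readouts listed, 7 were in the table and 6 tested, with a median of 0.25. Of these, 1 was higher and 2 lower, which is near the 21.7% and 23.5% of all genes. The counts were 3 and 2 and the median 0.32 without knockdown library 3. Bambi, a decoy receptor of the TGF-beta family, was at 117, 99.5 and 163 in the knockdown and at 26.2, 16.4 and 16.2 in control (2.64 ± 0.31 log2, adjusted p = 0.0010, limma). Tnfrsf19, a receptor also known as TROY, was at 6.63, 5.86 and 26.8 in the knockdown and at 349, 493 and 313 in control (-5.06 ± 0.58, adjusted p = 9.2e-04, limma). It reached the filter of 10 in 3 libraries through control, where it is high, so its call is no support. The growth regulator Myc was lower, at -0.93 ± 0.11 (adjusted p = 0.0012).

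Among R-spondins and LGR relatives, 4 of 6 listed genes were in the table and 3 tested, with 1 higher and 1 lower in both cases, with and without knockdown library 3. The gene not called was Rspo3, another R-spondin, at 19.9, 16.7 and 69.3 in the knockdown and at 5.45, 16.4 and 7.60 in control. Its log2 change of 1.58 (adjusted p = 0.10, limma) was 0.96 without knockdown library 3. The ligand Rspo2 was at 214, 204 and 178 in the knockdown and at 3.27, 1.26 and 2.85 in control. It reached the filter of 10 in 3 libraries through the knockdown alone, where it is high, so it had to differ and its call (adjusted p = 6.5e-05, limma) is no support. In reads it had 661 over the knockdown libraries and 7 over the control libraries, a ratio of 79.1 at equal depth (95% interval 38.2 to 197.6, exact, counting error only). The receptor Lgr4 was lower, at -0.68 ± 0.21 (adjusted p = 0.038), and lost its call without any 1 control library or knockdown library 2 (adjusted p = 0.054 to 0.12).

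Of 7 Dishevelled and scaffold partners of the NKD and axin proteins, 2 were higher and 1 lower, with a median of -0.16. Leaving out knockdown library 3 gave 4 and 3, beside the 38.6% and 39.9% of all genes, and turned the median to 0.24. The Dishevelled gene Dvl2 was higher by 0.86 ± 0.18 log2 (adjusted p = 0.0097, limma) and the kinase Gsk3b by 0.47 ± 0.13 (adjusted p = 0.029), while the kinase Csnk1a1 was lower, at -1.11 ± 0.13 (adjusted p = 9.0e-04). Gsk3b lost its call without any 1 library other than knockdown library 3 (adjusted p = 0.0501 to 0.12).

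**Figure D4:**
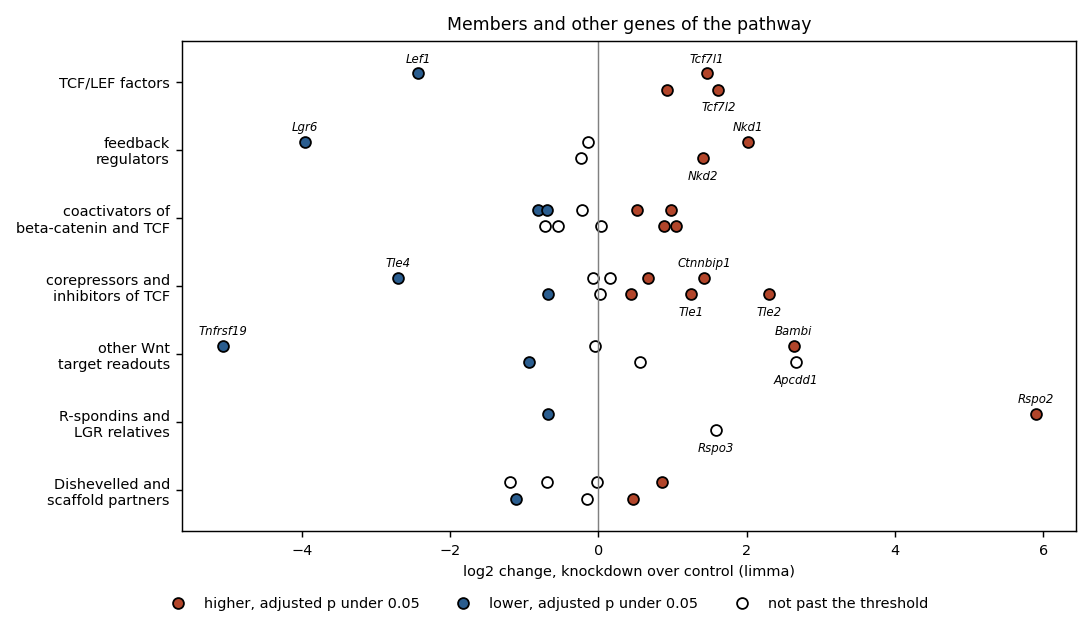
Log2 change, knockdown over control, of each tested gene in the groups of members and in 5 lists of other pathway genes; red is higher and blue lower at an adjusted p under 0.05, white is neither. Each group but the TCF/LEF factors holds white points, and every group holds genes on both sides of 0, from Tnfrsf19 at -5.06 to Rspo2, whose fitted value of 5.90 is against 7 control reads.

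Patterns over the 6 libraries were compared by the mean absolute difference of centred log2 values, among 11083 other tested genes, those averaging 100 or more and named by neither a Gm number nor a Rik clone. The genes nearest to Axin2 were Polr3e (0.071), Gopc (0.071) and Msl2 (0.072), where the median gene was at 0.44. Those nearest to Lef1 were Phlda1 (0.084), Ammecr1 (0.086) and Dusp8 (0.11), where the median gene was at 1.31. Like Lef1, Dusp8 was at 67.2, 67.8 and 157 in the knockdown and at 531, 532 and 473 in control.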

How the data were processed

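Polyadenylated RNA of 6 libraries was sequenced as paired reads of 150 bp, per the labels' protocols. Submitters list Trimmomatic 0.36, featureCounts of Subread 1.5.2, DESeq2 and the build GRCm38, per the submitters' processing notes (aligner, annotation release, strand setting: not given in the sources used here). Each deposited signal value is, from its steps, a gene count divided by 1 factor per library; no header or label records how the authors set that factor. The authors also deposited a log2 fold change with its p-value and adjusted p-value, per the file headers. Every value was a whole multiple of 1 read within 0.01 reads in each library (100%), so reads were recovered, and edgeR on those reads called 7344 genes. Floors and counts cover counting error only.

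limma 3.58.1 (R 4.3.3) with a mean-variance trend was fitted to log2(value + 1) over all genes tested, without covariates, two-sided, and differences understate changes of low genes. Exact permutation tests used SciPy. Alternatives were other filters, pseudocounts and scalings, no trend, edgeR 4.0.16, DESeq2 1.42.0, a replicate block and each library left out. The procedure was tested on simulated data. Gene positions and lengths came from GENCODE M21 (GRCm38), promoters from RefSeq. No pair of libraries agreed within sampling noise (chi-square per gene at least 3.85, where 1 is noise). Members and lists were chosen with earlier results of these data known. Named by rule were all members, Adamtsl2, up to 2 genes per direction of each pathway list by adjusted p, and the 3 genes nearest to Axin2 and Lef1; other genes were chosen after their values were seen, except markers and an antisense gene looked up by overlap.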

Additional observations from a re-analysis of the deposited data

How the results depend on the processing

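Under the alternatives run, 4 to 6 members were called higher and 2 lower, where 5 and 2 were called above; among called members that were tested, Tcf7l2 was the one that lost its call. The number of genes called ranged from 5101 to 12754 when 1 library was left out, the highest without knockdown library 3. Leaving out 1 library gave Axin2 -0.31 to 0.13 and Znrf3 -0.47 to 0.19, each turning positive without knockdown library 3. The same library turned Tcf7l1 minus Tcf7l2 (-0.39 to 0.33), the Tcf7 share (-9.79 to 0.10 percentage points) and the Tcf7l2 share (-0.82 to 10.2). Without a trend Tcf7l2 had adjusted p = 0.056 (limma). With coding length the differences in share were -14.6 (Lef1), -2.98 (Tcf7, exact p = 1) and 10.4 percentage points (Tcf7l2, exact p = 0.1). A minimum of 50 left Nkd1 and Rnf43 untested. Upper-quartile scaling moved the median of all genes to 0.11 log2 and turned no member.

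Same-numbered libraries correlated in their deviations at 0.017, 0.105 and 0.143 across genes, and differently numbered ones at -0.147 to 0.116. Deviations of 3 libraries from their own mean are tied to each other, so these values cannot decide whether the numbers pair the libraries. The main fit left them unpaired. With a replicate block 6311 genes were called, 4 members higher and 2 lower, and Tcf7l2 had adjusted p = 0.059; it changed no other member's call. Depth limits Rnf43 and Nkd1, with 2 to 14 reads per control library.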

Other observations

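Apcdd1 and Lgr5, Wnt target genes that were not called or not tested, were picked after their values were seen. Apcdd1, which encodes a membrane inhibitor of Wnt signalling, was at 899, 903 and 71.5 in the knockdown and at 54.5, 69.5 and 58.9 in control. Its log2 change was 2.66 ± 1.00 (SE) with adjusted p = 0.075 (limma), and 3.87 without knockdown library 3, which lay near the control level. Lgr5, the R-spondin receptor used as a stem cell marker, was at 9.95, 6.69 and 76.0 in the knockdown and at 6.54, 10.1 and 5.70 in control, with knockdown library 3 the only high value. Beta-catenin itself (Ctnnb1) was at 22967, 22287 and 3360 in the knockdown and at 19244, 21026 and 18969 in control, where the same library was the low one.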
